A study of Mus musculus with 6 samples.

Results

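Epithelial cells are held together by several kinds of contact. Tight junctions seal the space between neighbours at the apical side, where claudins, occludin and junctional adhesion molecules span the membrane and the ZO proteins anchor them to actin. Adherens junctions join cells through cadherins, whose tails bind catenins, and desmosomes join them through desmosomal cadherins, plakoglobin, plakophilins and desmoplakin. Gap junctions are channels built of connexins, and in the exocrine pancreas they couple the acinar cells, which make the digestive enzymes. PTF1A is the transcription factor that maintains the identity of acinar cells.

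The genes described here are those of these 4 kinds of contact, with the polarity proteins that place them. They were picked by symbol (claudins, cadherins other than Cdh5, ZO proteins, occludin and the MARVEL proteins, F11r, connexins, catenins, plakophilins, desmogleins, desmocollins, Dsp, Jup, and the Pard3, Pard6, Crb and Mpp polarity proteins), and 44 of the 10245 genes of the table matched. The rule used symbols and no measured value, though the genes and lists were chosen with earlier results of these data known. They comprise 9 claudins, 4 occludin and MARVEL genes, F11r, ZO genes, 9 polarity genes, 2 cadherins, 6 catenin genes, 7 desmosome genes and 3 connexins. N-cadherin (Cdh2) and Cldn18 were not analysed here. Among the 6 catenin genes, Ctnnbip1, Ctnnal1 and Ctnnbl1 matched by symbol only: Ctnnbip1 encodes ICAT, an inhibitor of β-catenin in the nucleus, and Ctnnbl1 a splicing-associated protein.

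RNA was taken from whole pancreata, of which 3 came from control mice, Ptf1a(CreER/+), and 3 from Ptf1a cKO mice, Ptf1a(CreER/fl). The CreER allele disrupts Ptf1a, so the controls were functionally heterozygous for it, and the Ptf1a cKO mice lost the remaining floxed copy only in cells in which the Ptf1a locus drove the recombinase, the acinar cells. According to the study's table of genotypes both groups carried an R26R EYFP reporter of recombination. All 6 mice received 3 doses of tamoxifen at 0.25 mg/g in corn oil by gavage and were sacrificed on day 14. The control mice were 4 months old (1 male, 2 females) and the Ptf1a cKO mice 5 months old (1 male, 2 females), so age cannot be told apart from genotype.

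Ptf1a itself stood at 566, 601 and 652 normalized counts in the control libraries and 19.8, 70.1 and 10.2 in the Ptf1a cKO libraries (log2 fold change -4.41, SE 0.49, adjusted p = 0.00033), so every library matched its label. Levels are the normalized read counts of the deposited table. Library medians ran from 125.0 to 128.5, and depth could not be read from the values. Acinar markers were abundant in the controls, and 22 of 31 were lower in Ptf1a cKO, while 6 of 11 ductal, 7 of 9 gastric and mucous, 13 of 14 fibroblast and stellate, 7 of 10 leukocyte, 3 of 6 smooth muscle, 2 of 3 Schwann and nerve, 2 of 14 endothelial, 1 of 4 mesothelial and 0 of 12 endocrine markers were higher. None of the latter 9 lists had a lower gene, and 1 acinar marker was higher. Of all 10245 genes, 17.1% were higher and 16.8% lower, so the endothelial share lay near that of all genes. Lists of 3 to 6 genes are too short to read a share from. Some genes stand in 2 lists: Muc1 (ductal, gastric and mucous), Acta2 and Des (fibroblast and stellate, smooth muscle) and Krt19 (ductal, mesothelial). In whole tissue, fewer cells of a type and less RNA per cell cannot be told apart.

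In Ptf1a cKO pancreas the junction genes moved in both directions. Both connexins of the acinar cell fell, as did 2 claudins, Cldn9 and Cldn10. The ZO genes Tjp1 and Tjp3, occludin, F11r, 3 other claudins, p120-catenin (Ctnnd1) and desmocollin 2 (Dsc2) rose. E-cadherin (Cdh1) and β-catenin (Ctnnb1) did not pass, with 95% intervals of -0.25 to 0.28 and -0.31 to 0.23 for their log2 fold changes. By limma's moderated test with Benjamini-Hochberg adjustment over all 10245 genes, at an adjusted p under 0.05, 12 of the 44 genes (27.3%) were higher in Ptf1a cKO, beside 17.1% of all genes. A further 6 (13.6%) were lower, beside 16.8% of all genes. Together 18 of 44 passed, where 33.9% of all genes did, so the total lay near the background. The lowest library of one group lay above the highest of the other in 28 of 44 genes (63.6%), beside 50.8% of all genes. The set as a whole was centred near 0, with a median log2 fold change of 0.06 for the junction genes beside 0.04 for the whole table.

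On the log2 scale of the fit, 5 of the 6 lower genes fell by at least 1, while 2 of the 12 higher genes, Cldn4 and Cdh11, rose by at least 1. Where a level is called so many times higher or lower below, that is the ratio of the group means, without the value added before the logarithm. In the 6 fits that left out 1 library each, 5 of the 6 lower genes and 8 of the 12 higher genes passed every time. When every library was instead scaled to the same total, the median of all genes moved to 1.49 on the log2 scale, and it moved to 0.18 when the digestive enzymes, which fill the control libraries, were left out of that total. Relative to the median of 1.49 the 18 genes kept their directions, but in absolute terms Ctnnbip1 and Mpp6 changed sign under that scaling.

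**Figure D1:**
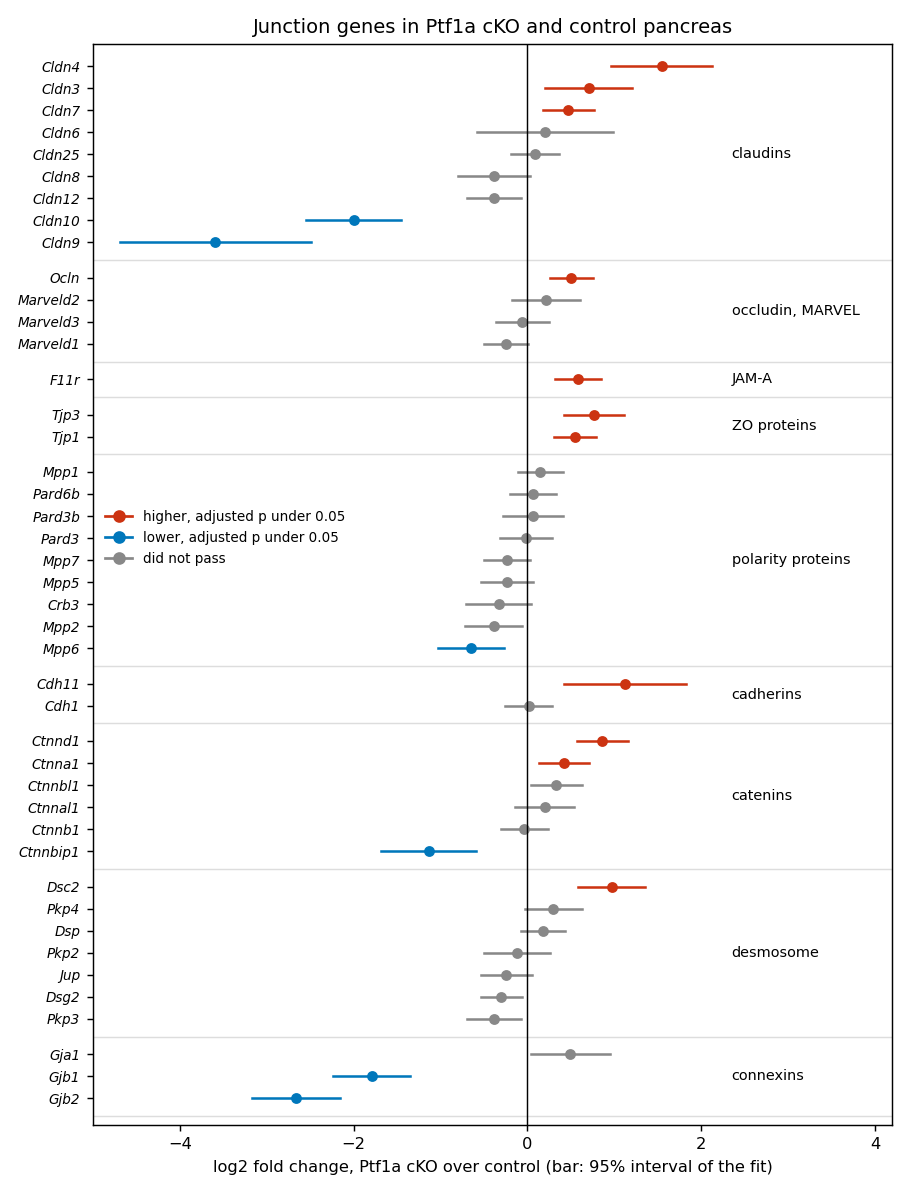
Log2 fold change (Ptf1a cKO over control, horizontal axis) of 43 junction genes with the 95% interval of the limma fit, grouped by kind of junction, n = 3 mice per group. The connexins Gjb1 and Gjb2 and the claudins Cldn9 and Cldn10 lie farthest to the left, Tjp1 and Tjp3 lie to the right, and Cdh1 lies at 0.01.

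Of the 3 connexins picked, 2 fell and 1 did not pass. Gjd2, a connexin gene that the symbol rule did not cover, did not pass either (log2 fold change 0.30, limma's adjusted p = 0.76). It is not in the sums and shares below. Connexin 26 (Gjb2) and connexin 32 (Gjb1) form the channels between acinar cells, through which calcium signals and small metabolites pass. Gjb2 stood at 516, 566 and 660.5 normalized counts in the control libraries and 91.5, 124 and 60.3 in the Ptf1a cKO libraries. The groups lay far apart, and the level was 6.32 times lower (log2 fold change -2.66, SE 0.23, adjusted p = 9.7e-05). Gjb1 stood at 767, 722 and 838 normalized counts in the control libraries and 254, 271 and 156 in the Ptf1a cKO libraries. It too had no overlap between groups, and its level was 3.41 times lower (log2 fold change -1.79, SE 0.19, adjusted p = 0.00030). With the same total for every library the log2 fold change of Gjb1 was -0.31 and did not pass (adjusted p = 0.22), while that of Gjb2 passed. Connexin 43 (Gja1), the connexin of many mesenchymal and epithelial cells, stood at 41.8, 43.2 and 59.4 normalized counts in the control libraries and 55.0, 71.8 and 80.6 in the Ptf1a cKO libraries. Its groups overlapped and it did not pass (log2 fold change 0.49, SE 0.20, adjusted p = 0.086), except when control 3 was left out (adjusted p = 0.046) or when libraries were scaled to the same total, with or without the digestive enzymes (adjusted p = 0.048 without them).

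Ratios of 2 genes within a library do not depend on how libraries are scaled, apart from the value added before the logarithm. The log2 ratio of Gja1 to Gjb1 was -3.93 ± 0.17 (SD, n = 3) in the controls and -1.65 ± 0.64 (SD, n = 3) in the Ptf1a cKO, a difference of 2.29. Every Ptf1a cKO library had a higher ratio than every control. The log2 ratio of Gjb2 to Gjb1 was -0.42 ± 0.13 (SD, n = 3) in the controls and -1.29 ± 0.16 (SD, n = 3) in the Ptf1a cKO, a difference of -0.87, so Gjb2 fell further than its partner. Neither ratio overlapped between groups, and in both cases the two-sided exact permutation p was 0.10, the smallest that 3 against 3 libraries allow.

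Per kilobase of exon, Gjb1 was second among the 43 junction genes with a known length in control pancreas, at 454 normalized counts per kb, and ninth in Ptf1a cKO, at 133. Gjb2 went from rank 4 (241 normalized counts per kb) to rank 23 (38.2). Of the summed connexin level per kb, the share of Gjb2 went from 33.9% ± 1.93 (SD, n = 3) to 19.6% ± 2.29 (SD, n = 3) and that of Gja1 from 1.999% ± 0.221 (SD, n = 3) to 11.4% ± 4.88 (SD, n = 3). Gjb1 thus remained the largest of the 3 connexins in every library, at 64.1% ± 2.08 (SD, n = 3) to 69.0% ± 4.04 (SD, n = 3) of the sum. The unscaled sum of the 3 connexins was 1324 to 1558 normalized counts in the controls and 297 to 467 in Ptf1a cKO.

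**Figure D2:**
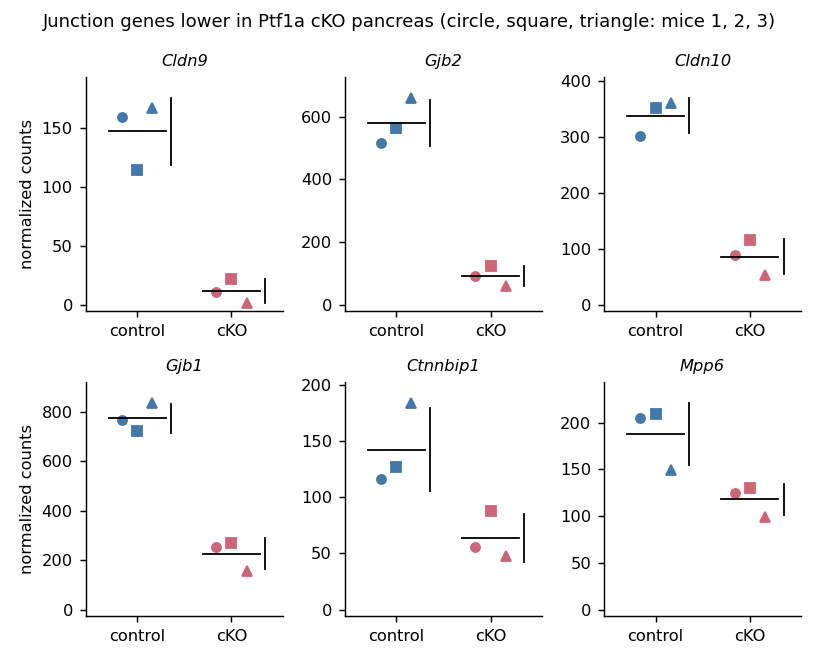
Normalized counts (vertical axes, linear, 1 scale per gene) of the 6 junction genes that were lower in Ptf1a cKO, 1 point per mouse, with the mean as a horizontal line and the SD (n = 3) as a vertical line. No gene overlaps between groups, and in each of the 6 the Ptf1a cKO square (mouse 2) is the highest and the triangle (mouse 3) the lowest. Scaled to the same total, Ctnnbip1 and Mpp6 change sign.

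Claudins set which ions and solutes cross a tight junction, and they moved in both directions: 2 of 9 fell, 3 rose and 4 did not pass. Cldn9 stood at 159.6, 115 and 167 normalized counts in the control libraries and 10.8, 21.9 and 1.81 in the Ptf1a cKO libraries. Its groups lay apart by a wide margin, and it had the largest fall of the 44 genes (log2 fold change -3.59, SE 0.49, adjusted p = 0.00083). Since the lowest library held under 2 normalized counts, the size of this fold depends on the 3.41 normalized counts added before the logarithm. Cldn10, which forms paracellular ion channels, stood at 301, 351 and 359.9 normalized counts in the control libraries and 89.3, 115 and 52.5 in the Ptf1a cKO libraries. Its level was 3.95 times lower with no overlap (log2 fold change -2.001, SE 0.24, adjusted p = 0.00046). Cldn10 has transcripts from separate start sites that encode proteins with different ion selectivity, and a value per gene does not separate them.

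Claudin 4 (Cldn4) is a claudin of ducts and of many simple epithelia and showed the largest rise of the junction genes. It stood at 16.3, 16.4 and 27.5 normalized counts in the control libraries and 50.6, 65.2 and 77.2 in the Ptf1a cKO libraries. All Ptf1a cKO libraries lay above all controls, and its level was 3.21 times higher (log2 fold change 1.54, SE 0.26, adjusted p = 0.0024). Claudin 3 (Cldn3), a sealing claudin and the claudin with the highest level per kb of exon here, stood at 429.7, 424 and 515 normalized counts in the control libraries and 672, 1088 and 560.3 in the Ptf1a cKO libraries. Ptf1a cKO 2 was well above the other libraries, and the log2 fold change was 0.70 (SE 0.22, adjusted p = 0.036) with all 6 libraries and 0.43 (adjusted p = 0.043) without Ptf1a cKO 2. Cldn7, found along the sides of many epithelial cells, stood at 167, 147 and 168 normalized counts in the control libraries and 219, 255 and 198 in the Ptf1a cKO libraries (log2 fold change 0.47, SE 0.13, adjusted p = 0.022). The rises of both genes lost their call when some libraries were left out: that of Cldn3 without control 1 (adjusted p = 0.11), control 2 (0.11), control 3 (0.055) or Ptf1a cKO 1 (0.056), and that of Cldn7 without control 1 (0.052), control 2 (0.082), Ptf1a cKO 1 (0.053) or Ptf1a cKO 2 (0.059).

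The other 4 claudins, Cldn6, Cldn8, Cldn12 and the entry named Cldn25, had log2 fold changes of -0.39 to 0.20 and values of 19.0 to 277 normalized counts. The symbol Cldn25 is a synonym of a claudin pseudogene and of Cldnd1 in RefSeq, so the identity of that entry is uncertain. Cldn6 and Cldn9 are neighbours on chromosome 17 with no coding gene between them, as are Cldn4 and Cldn3 on chromosome 5. In the first pair Cldn9 fell while Cldn6 did not pass, with a log2 ratio of Cldn9 to Cldn6 of 2.13 ± 0.36 (SD, n = 3) in the controls and -1.66 ± 0.75 (SD, n = 3) in the Ptf1a cKO. The size of the Ptf1a cKO ratio depends on the 3.41 normalized counts added, since Cldn9 stood at 1.81 in Ptf1a cKO 3. The second pair rose together, Cldn4 more than Cldn3, with a log2 ratio of Cldn4 to Cldn3 of -4.32 ± 0.22 (SD, n = 3) in the controls and -3.48 ± 0.61 (SD, n = 3) in the Ptf1a cKO. These 2 ratios were chosen after their values were seen and were not tested.

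The unscaled sum of all 9 claudins, with the uncertain Cldn25 entry, differed little on average, at 1698 normalized counts in the controls and 1648 in Ptf1a cKO. It ran from 1582 to 1892 in the controls and from 1377 to 2020 in Ptf1a cKO. The make-up of the claudins, taken from a different sum, did differ. Per kb of exon and over the 8 claudins with a known length, the share of Cldn3 went from 41.2% ± 0.146 (SD, n = 3) to 62.1% ± 5.44 (SD, n = 3), that of Cldn10 from 14.9% ± 1.44 (SD, n = 3) to 3.34% ± 0.618 (SD, n = 3) and that of Cldn9 from 11.6% ± 1.85 (SD, n = 3) to 0.734% ± 0.526 (SD, n = 3). Cldn4 went from 1.24% ± 0.251 (SD, n = 3) to 3.84% ± 1.501 (SD, n = 3) of the sum and Cldn7 from 12.4% ± 1.13 (SD, n = 3) to 16.0% ± 2.03 (SD, n = 3). None of these 5 shares overlapped between groups, though the highest control and the lowest Ptf1a cKO library were nearly equal for Cldn7.

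**Figure D3:**
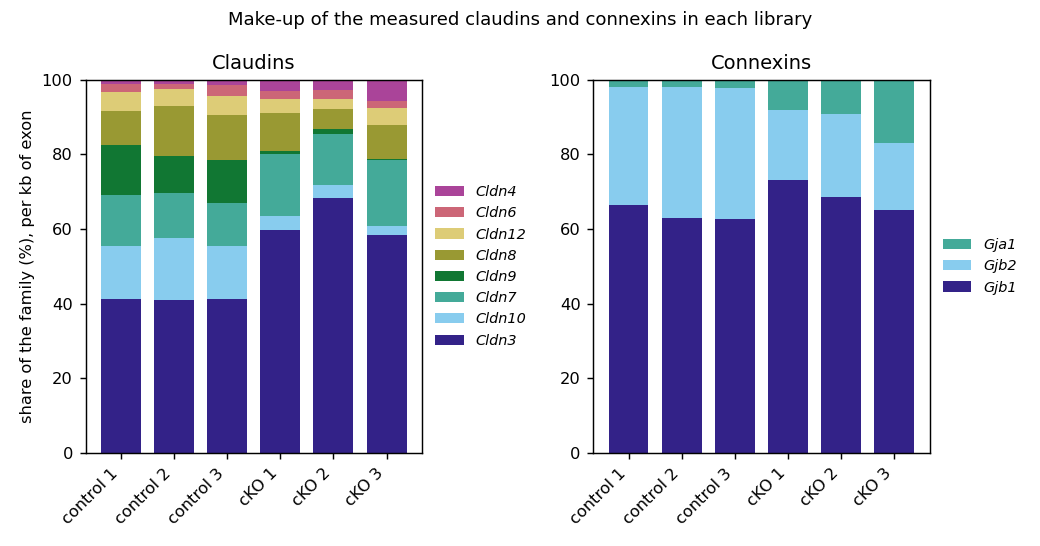
Share (%, vertical axis) of each gene in the summed level per kb of exon of 8 claudins (left) and 3 connexins (right), 1 bar per library, 3 control and 3 Ptf1a cKO mice. In the Ptf1a cKO bars the Cldn3 and Cldn4 segments are larger and those of Cldn9 and Cldn10 smaller than in every control, and the Gja1 segment is larger and the Gjb2 segment smaller.

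The upstream sequences of the connexin with the largest change and of 3 claudins that changed are printed to show which of 4 short motifs they hold. RefSeq's table of start sites (GRCm38.p6, a later build than the mm9 of the read counts) held 30 of the 44 genes (not Cldn9), and the 250 bases before each start were searched on both strands for the E-box form CAGCTG and the TC-box core TTCCCA, letters found in sites of the PTF1 complex, for the grainyhead type AACNGGTT and for the AP-1 type TGANTCA. Matches are in capitals, no match overlaps another in the windows printed, and each sequence runs 5′ to 3′ on the strand of its gene. The windows are chr14:57104703-57104952 (minus strand) for Gjb2, chr14:118854700-118854949 (plus strand) for the downstream start of Cldn10, chr5:134946935-134947184 (minus strand) for Cldn4 and chr5:134985964-134986213 (plus strand) for Cldn3.
Gjb2: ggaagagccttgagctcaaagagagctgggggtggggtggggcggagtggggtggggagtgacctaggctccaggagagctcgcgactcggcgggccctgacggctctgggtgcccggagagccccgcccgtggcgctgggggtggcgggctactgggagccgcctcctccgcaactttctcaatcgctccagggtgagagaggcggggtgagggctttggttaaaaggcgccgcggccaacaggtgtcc
Cldn10: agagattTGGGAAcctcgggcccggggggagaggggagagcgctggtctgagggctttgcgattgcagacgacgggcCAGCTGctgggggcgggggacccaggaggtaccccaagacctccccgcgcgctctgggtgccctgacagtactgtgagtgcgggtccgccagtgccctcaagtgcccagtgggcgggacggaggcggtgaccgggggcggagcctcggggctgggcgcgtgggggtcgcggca
Cldn4: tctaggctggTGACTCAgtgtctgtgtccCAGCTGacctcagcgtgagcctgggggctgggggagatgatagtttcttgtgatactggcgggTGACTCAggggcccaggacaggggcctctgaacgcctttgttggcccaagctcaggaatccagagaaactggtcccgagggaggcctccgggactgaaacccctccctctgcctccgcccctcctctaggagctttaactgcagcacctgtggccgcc
Cldn3: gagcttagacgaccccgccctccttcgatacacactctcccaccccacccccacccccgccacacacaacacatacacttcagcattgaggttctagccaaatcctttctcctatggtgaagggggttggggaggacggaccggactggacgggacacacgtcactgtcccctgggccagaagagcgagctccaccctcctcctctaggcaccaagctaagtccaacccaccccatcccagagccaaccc
The Cldn10 window holds 1 TC-box core (read on the other strand as TGGGAA) and 1 CAGCTG, and the Cldn4 window holds 2 TGACTCA and 1 CAGCTG, while none of the 4 motifs occurs in the windows of Gjb2 and Cldn3 or in that of the upstream start of Cldn10, which is not printed. Among all 32851 windows of the table, 13.0% held CAGCTG, 21.6% TTCCCA, 1.79% AACNGGTT and 6.75% TGANTCA. Of the 12 windows of 8 higher genes, 1, 1, 0 and 2 held them, and of the 11 windows of 5 lower genes 2, 1, 0 and 0 did. Of the 25 windows of 17 junction genes that did not pass, 1, 8, 0 and 1 did, so TTCCCA was commonest there (32%). Windows of 1 gene can overlap, as those of Crb3 and of Marveld2 do, so the same letters can be counted more than once. These counts are descriptions of letters in short windows, and binding was not measured.

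The ZO proteins are scaffolds that tie claudins and occludin to actin. Tjp1 (ZO-1) stood at 279, 293 and 286 normalized counts in the control libraries and 393, 416 and 455 in the Ptf1a cKO libraries (log2 fold change 0.55, SE 0.11, adjusted p = 0.0046). Tjp3 (ZO-3), which is largely confined to epithelia, stood at 110.1, 137 and 94.97 normalized counts in the control libraries and 178, 216 and 188 in the Ptf1a cKO libraries (log2 fold change 0.76, SE 0.15, adjusted p = 0.0055). Both rose without overlap between groups, and each passed in all 6 fits without 1 library.

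Occludin (Ocln), a membrane protein of the tight junction, stood at 182, 202 and 177 normalized counts in the control libraries and 267, 260.0 and 273 in the Ptf1a cKO libraries (log2 fold change 0.51, SE 0.11, adjusted p = 0.0073), and its Ptf1a cKO values were tightly grouped. JAM-A (F11r), an adhesion molecule of the immunoglobulin family that recruits polarity proteins, stood at 280.0, 255 and 237 normalized counts in the control libraries and 361, 419 and 376 in the Ptf1a cKO libraries (log2 fold change 0.58, SE 0.12, adjusted p = 0.0056). Neither gene overlapped between groups. The genes for the other MARVEL proteins, which include tricellulin (Marveld2), the neighbour of Ocln on chromosome 13, had log2 fold changes of -0.25 to 0.21 and did not pass. Of the 9 polarity genes, which encode parts of the Par and Crumbs complexes and related MAGUK scaffolds, none was higher and 1 was lower. That one, Mpp6, stood at 205, 209 and 149 normalized counts in the control libraries and 125, 129.8 and 98.8 in the Ptf1a cKO libraries (log2 fold change -0.65, SE 0.17, adjusted p = 0.016), and its log2 fold change was 0.82 with the same total for every library. Its call was lost without control 1 (adjusted p = 0.065), control 2 (0.065) or Ptf1a cKO 3 (0.056). The other 8 had log2 fold changes of -0.39 to 0.15 with intervals that stayed between -0.72 and 0.41.

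**Figure D4:**
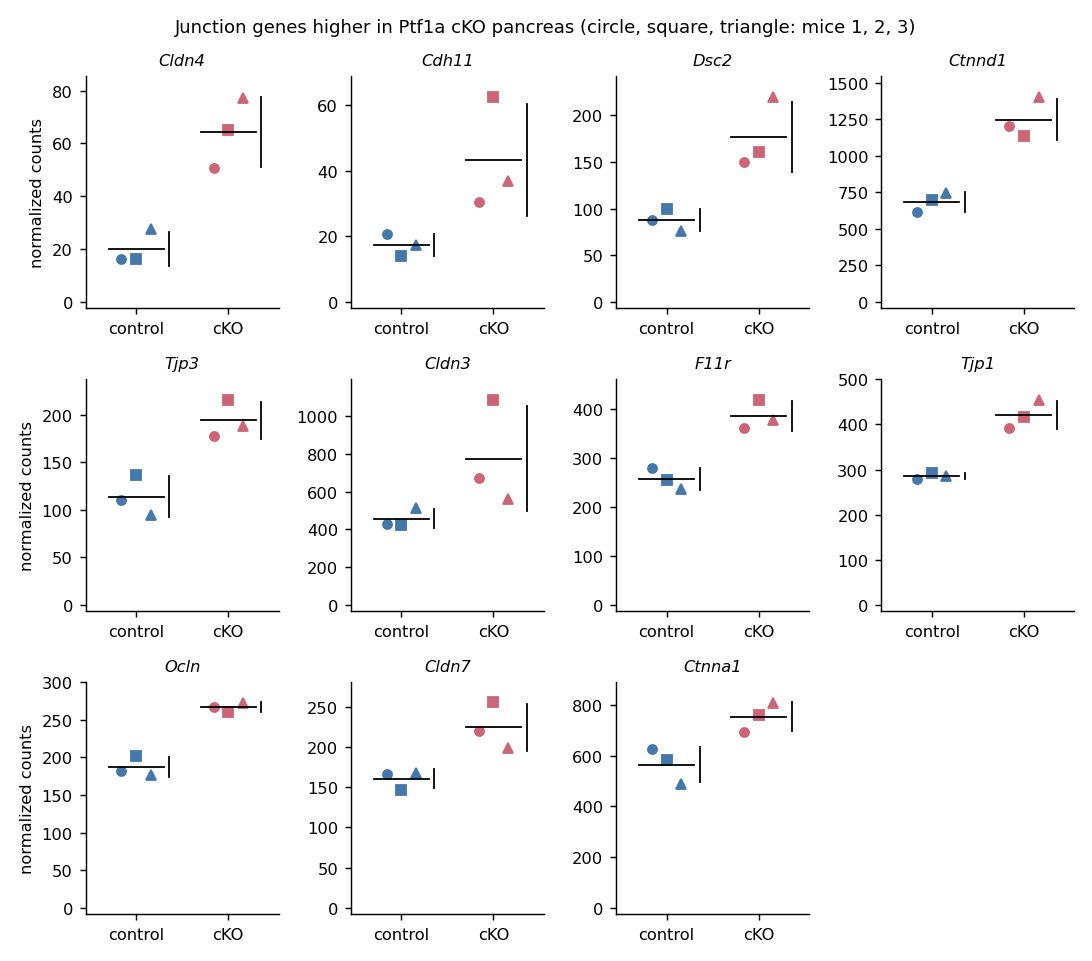
Normalized counts (vertical axes, linear, 1 scale per gene) of 11 junction genes that were higher in Ptf1a cKO, 1 point per mouse, with the mean as a horizontal line and the SD (n = 3) as a vertical line. No gene overlaps between groups, and mouse 2 stands above the other Ptf1a cKO mice for Cldn3 and Cdh11.

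At the adherens junction, the cadherin and its partners did not move alike. E-cadherin (Cdh1), the cadherin of epithelia, stood at 949.6, 1034 and 1002 normalized counts in the control libraries and 938, 951 and 1135 in the Ptf1a cKO libraries. The groups overlapped, and the log2 fold change was 0.01 with a 95% interval of -0.25 to 0.28 (adjusted p = 0.94). Under the scaling to the same total Cdh1 passed with 1.51, close to the median of all genes there. β-catenin (Ctnnb1), which binds the cadherin tail and also acts in Wnt signalling, had the highest level per kb of exon of the junction genes, and stood at 2582, 2588 and 2330.0 normalized counts in the control libraries and 2469, 2516 and 2312 in the Ptf1a cKO libraries. It did not pass either (log2 fold change -0.04, 95% interval -0.31 to 0.23, adjusted p = 0.82). The log2 ratio of Ctnnb1 to Cdh1 was 1.33 ± 0.11 (SD, n = 3) in the controls and 1.27 ± 0.22 (SD, n = 3) in the Ptf1a cKO, with an exact permutation p of 0.80.

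By contrast p120-catenin (Ctnnd1), which binds cadherins near the membrane and slows their removal from the cell surface, stood at 614, 694 and 747 normalized counts in the control libraries and 1200.0, 1137 and 1404 in the Ptf1a cKO libraries. The lowest Ptf1a cKO library lay well above the highest control, and the level was 1.82 times higher (log2 fold change 0.86, SE 0.13, adjusted p = 0.0014). Its log2 ratio to Cdh1 was -0.54 ± 0.11 (SD, n = 3) in the controls and 0.31 ± 0.05 (SD, n = 3) in the Ptf1a cKO, with no overlap between groups (a ratio chosen after its values were seen and not tested). α-catenin (Ctnna1), the link from β-catenin to actin, stood at 625, 581 and 488 normalized counts in the control libraries and 694, 758 and 807 in the Ptf1a cKO libraries (log2 fold change 0.42, SE 0.13, adjusted p = 0.033). That call was lost without control 2 (adjusted p = 0.079), control 3 (0.078), Ptf1a cKO 2 (0.052) or Ptf1a cKO 3 (0.091). The ICAT gene Ctnnbip1 stood at 116, 127 and 184 normalized counts in the control libraries and 55.6, 88.1 and 47.5 in the Ptf1a cKO libraries (log2 fold change -1.14, SE 0.24, adjusted p = 0.0072), without overlap, but its log2 fold change was 0.30 with the same total for every library. Ctnnal1 and Ctnnbl1 had log2 fold changes of 0.20 and 0.33 and did not pass.

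Cadherin 11 (Cdh11) is a cadherin of mesenchymal cells such as fibroblasts. It had the lowest level per kb of exon of the 43 genes with a known length, and stood at 20.7, 14.1 and 17.2 normalized counts in the control libraries and 30.5, 62.6 and 36.9 in the Ptf1a cKO libraries (log2 fold change 1.12, SE 0.31, adjusted p = 0.023). The groups did not overlap, but the call was lost without control 2 (adjusted p = 0.073), control 3 (0.052) or Ptf1a cKO 2 (0.066). Beside it, 13 of 14 fibroblast and stellate markers were higher and none lower. Their summed level was 4111, 3807 and 4554 normalized counts in the controls and 7165, 13279 and 9891 in Ptf1a cKO, none of the 14 was at 0 in any library, and the highest sum was in Ptf1a cKO 2, the library with the most Cdh11. The part of those cells in the rise of Cdh11 and in the level of Gja1 was not tested. VE-cadherin (Cdh5), an endothelial gene outside the set, had a log2 fold change of -0.25 (limma's adjusted p = 0.20). It is itself 1 of the 14 endothelial markers, of which 2 were higher and none lower, beside 17.1% of all genes higher and 16.8% lower.

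Of the 7 desmosome genes, 1 passed. Desmocollin 2 (Dsc2), a desmosomal cadherin, stood at 88.05, 99.9 and 75.7 normalized counts in the control libraries and 149.7, 161 and 219.8 in the Ptf1a cKO libraries. Every Ptf1a cKO library lay above every control, and the mean was 2.01 times higher, which on the log2 scale of the fit was just under 1 (log2 fold change 0.97, SE 0.17, adjusted p = 0.0029). The gene of the other desmosomal cadherin measured, desmoglein 2 (Dsg2), stood at 634, 703 and 683 normalized counts in the control libraries and 519.9, 549 and 569 in the Ptf1a cKO libraries. Its log2 fold change was below 0 and did not pass (log2 fold change -0.30, SE 0.11, adjusted p = 0.055), although its groups did not overlap. The log2 ratio of Dsc2 to Dsg2 was -2.90 ± 0.19 (SD, n = 3) in the controls and -1.63 ± 0.23 (SD, n = 3) in the Ptf1a cKO (chosen after its values were seen and not tested).

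Desmoplakin (Dsp), which joins desmosomes to keratin filaments, stood at 609, 609 and 633 normalized counts in the control libraries and 669, 776 and 654 in the Ptf1a cKO libraries (log2 fold change 0.18, SE 0.11, adjusted p = 0.25). Plakoglobin (Jup), which is shared by desmosomes and adherens junctions, stood at 669, 669 and 530.1 normalized counts in the control libraries and 485, 576 and 512 in the Ptf1a cKO libraries (log2 fold change -0.24, SE 0.13, adjusted p = 0.18). Neither passed, and their 95% intervals were -0.08 to 0.43 and -0.54 to 0.06. The log2 ratio of Jup to Dsp was 0.01 ± 0.22 (SD, n = 3) in the controls and -0.41 ± 0.06 (SD, n = 3) in the Ptf1a cKO, without overlap and with the smallest two-sided exact permutation p that the design allows, 0.10. The plakophilin genes Pkp2, Pkp3 and Pkp4, grouped with the desmosome by symbol, had log2 fold changes of -0.38 to 0.30 and did not pass.

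Over all 44 genes, 26 did not pass. Their log2 fold changes lay between -0.39 and 0.49, and all 26 of the 95% intervals lay within 2-fold in either direction, from -0.79 at the lowest bound to 0.99 at the highest. In 10 of the 26 the groups did not overlap. The share over all 10245 genes, 50.8%, includes the genes that passed, so it is no like background for these 26. The share among all genes that did not pass was not computed.

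The Ptf1a cKO libraries were not alike. All 6 lower genes were highest in Ptf1a cKO 2, next in Ptf1a cKO 1 and lowest in Ptf1a cKO 3. That is the order of Ptf1a, which stood at 19.8, 70.1 and 10.2 in Ptf1a cKO 1, 2 and 3, and of the summed acinar markers, which stood at 21.5%, 35.2% and 13.0% of the control mean. Among all 1724 lower genes, 47.4% had this order. The 12 higher genes had no such order. The highest library was Ptf1a cKO 3 for 7 of them (58.3%) and Ptf1a cKO 2 for 5 (41.7%), beside 52.0% and 18.8% of all 1751 higher genes. The lowest of the Ptf1a cKO libraries was Ptf1a cKO 1 for 8 of them (66.7%), beside 31.4% of all higher genes. The summed ductal markers stood at 93491, 26251 and 110986 in Ptf1a cKO 1, 2 and 3 (4201 to 5165 in the controls), most of it Spp1, with 87512, 20971 and 105340.0. The other 10 ductal markers summed to 5979, 5280.2 and 5646 in those libraries, beside 2958, 3206 and 2875 in the controls, and Krt19 did not pass (178, 299 and 251, beside 212, 279 and 232 in the controls). The leukocyte markers summed to 5252, 1978 and 6049 (879 to 1656 in the controls). No ductal or leukocyte marker was at 0 in all libraries of a group. The part of any of these in the junction genes was not tested.

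Genes whose products work with these junctions were taken from a list of 74 symbols, of which 50 were in the table. Of the 50, 13 (26%) were higher and 7 (14%) lower, beside 17.1% and 16.8% of all genes, and the median log2 fold change was 0.20. With the log2 fold change and limma's adjusted p in parentheses, the 4 largest rises were Epcam (1.37, adjusted p = 9.2e-05), an adhesion molecule that binds claudins, Pvrl4 (1.03, 0.0048) and Pvrl2 (0.87, 0.0034), the nectins 4 and 2 of adherens junctions, and Numbl (1.00, 0.038), an endocytic adaptor. The call of Numbl was lost without any 1 library other than Ptf1a cKO 3 (adjusted p = 0.051 without control 1, 0.11 without control 2, 0.085 without control 3, 0.12 without Ptf1a cKO 1 and 0.088 without Ptf1a cKO 2). Epcam was very even, with 235, 243 and 199 normalized counts in the control libraries and 593, 571 and 595 in the Ptf1a cKO libraries. The 4 largest falls, given in the same way, were Cdhr2 (-1.33, 0.016), a protocadherin that links microvilli, Amotl2 (-1.22, 0.00027), an angiomotin of tight junctions, Spint1 (-1.21, 0.00039), an inhibitor of epithelial serine proteases, and Prkcz (-0.98, 0.0015), the atypical protein kinase C of the Par complex. Pard3 and Pard6b, scaffold genes of that complex, had log2 fold changes of -0.01 and 0.06 and did not pass. With the same total for every library, where the median of all genes was 1.49, all 4 falls changed sign. The log2 fold changes there were 0.08 for Cdhr2, 0.25 for Amotl2, 0.28 for Spint1 and 0.46 for Prkcz, and none passed.

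Among transcription and splicing regulators known to act on junction genes, 13 of 21 listed were in the table, with 4 higher (30.8%) and 2 lower (15.4%), beside 17.1% and 16.8% of all genes. Again with the log2 fold change and adjusted p in parentheses, Zeb2 (1.05, adjusted p = 0.014) and Zeb1 (0.77, 0.024), repressors of E-cadherin that fibroblasts also express, were higher, and the call of Zeb1 was lost without control 1 (adjusted p = 0.069), control 3 (0.062), Ptf1a cKO 2 (0.063) or Ptf1a cKO 3 (0.079). So were Grhl2 (0.72, 0.0031), a grainyhead factor that activates claudin and E-cadherin genes in epithelia, and Hnf4a (0.61, 0.010), a nuclear receptor of digestive epithelia. Grhl2 stood at 98.6, 117 and 112 normalized counts in the control libraries and 162, 189 and 198 in the Ptf1a cKO libraries, without overlap. The epithelial factor Ovol1 (-1.44, 0.0079) and the splicing factor Esrp2 (-0.58, 0.0043) were lower. With the same total for every library Ovol1 was at -0.05 and did not pass, and Esrp2 was at 0.90 (limma's adjusted p = 0.00069).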

How the data were processed

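The authors sequenced RNA from individual whole pancreata, 3 control and 3 Ptf1a cKO. Single-end reads of 50 nucleotides were aligned; the submitters' processing notes name TopHat2 2.0.4, Bowtie 0.12.7.0, SAMtools 0.1.18.0, HTSeq 0.6.0 and the mm9 build. The deposited table holds a signal, namely normalized read counts on a scale common to the 6 libraries, made by the authors, who name edgeR's TMM scaling in the study's methods. Whole reads could not be recovered from it, so models of read counts were not run, depth per library is unknown and no counting interval is given. Entries that name no gene (75.7% to 82.6% of a library's normalized counts) were left out.

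All values were divided by 13.6393, and log2(value + 0.25) was taken, which equals adding 3.41 normalized counts. Fold changes of weakly expressed genes are therefore understated. The filter (mean of at least 0.25) removed 0 genes, so all 44 junction genes were tested. The groups were compared with limma 3.58.1 in R 4.3.3 (lmFit, eBayes with a mean-variance trend, no covariate), two-sided, with Benjamini-Hochberg adjustment over 10245 genes. The steps were tested on simulated data. Ratios of 2 genes were compared by two-sided exact permutation, 4 in one family (Benjamini-Hochberg adjusted p of 0.13 for 3 of them and 0.80 for Ctnnb1 to Cdh1), and 3 against 3 libraries cannot go below 0.10. Levels per kb used the exon length in GENCODE M21, with Python 3.11.15 and pandas 2.3.3.

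The genes and lists were chosen with earlier results of these data known. Values are given for the junction genes past the threshold, of which 1 is counted but not reported here, and, whatever their result, for Cdh1, Ctnna1, Ctnnb1, Ctnnd1, Tjp1, Ocln, F11r, Dsp, Jup, Gja1, Gjb1 and Gjb2; of the lists of partners and regulators, the 4 largest rises and falls are named. Dsg2 was added after its values were seen, as the partner of Dsc2. Replicate numbers were checked for pairing by the correlation of same-numbered libraries' deviations from their group means (0.04, 0.13 and 0.14) and were not taken as pairs. Alternatives were other pseudocounts, a filter, 3 scalings, 2 variance models, a replicate block, sex as a covariate, a stricter threshold and each library left out.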

Additional observations from a re-analysis of the deposited data

How the results depend on the processing

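The counts of 12 higher and 6 lower junction genes were 8 to 11 and 5 to 8 without 1 library, and all genes past the threshold numbered 2363 to 3601 then, beside 3475. With the same total for every library, 39 junction genes were higher and 3 lower, 9719 of all genes passed, 98.7% of them higher (50.4% in the reported fit), and the log2 fold changes of Ctnnb1 (1.46), Jup (1.25), Mpp6 (0.82) and Ctnnbip1 (0.30) turned positive; leaving the digestive enzymes out of that total gave 15 and 6 junction genes, 70.4% of all calls higher, and 0.11 for Ctnnb1. With the median of ratios 12 were higher and 9 lower, and Cdh1 was at -0.0101. Without 1 library, Cdh1 ranged from -0.0737 to 0.0632, and the log2 ratio of Ctnnb1 to Cdh1 from -0.117 to 0.0712. At an adjusted p under 0.01, 1794 genes passed. With the replicate block 11 junction genes were higher and 7 lower, 3525 of all genes passed, and 11 of the 12 and 6 of the 6 kept their calls (Ctnna1 had an adjusted p of 0.05002). Ptf1a cKO 1 correlated best with control 2 (0.08, beside 0.04 with control 1), while Ptf1a cKO 2 and 3 correlated best with controls 2 and 3 (0.13 and 0.14). Correlations this weak cannot settle whether the numbers pair the mice. Under the other pseudocounts, robust estimation and sex as a covariate, the same 12 and 6 passed. Without a mean-variance trend Cldn3 and Ctnna1 were lost (adjusted p = 0.064 and 0.055). A filter on the mean of 68.2 normalized counts left 38 junction genes, of which 10 were higher and 7 lower. It removed Cldn4 and Cdh11, the genes with the largest rises, because of their low counts. Models of read counts, and a ratio of Cdh2 to Cdh1, had been planned and were not run. Precision rests on 3 mice per group, age follows genotype, and the depth behind each value is unknown.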
